A study of Mus musculus with 9 samples.

Results

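SB216763-treated osteoblasts were set against mouse pulmonary endothelial cells (ECs), to describe what still separated the treated cells from endothelium at the level of RNA. The comparison used 6 of the 9 RNA-Seq libraries of the series, 3 of each group, chosen by the sample titles alone. The treated cells were MC3T3-E1, an established mouse osteoblast line, given 10 μM SB216763, an inhibitor of the GSK3 kinases, for 14 days. The ECs had no treatment and, according to the study's supplement, were sorted by FACS. Their strain, their age, the number of animals, and their time in culture, if any, are not given in the sources used here. The remaining 3 libraries came from MC3T3-E1 control cells without SB216763, whose time in culture is also not given, and they served to show the level of a gene in the same line without the drug. The osteoblasts are 1 line and the ECs come from 1 organ, so the cell type cannot be told apart from the contrast of a cell line with sorted cells of a tissue. Nothing in the labels says that the replicates came from separate cultures or animals, and p-values then measure only the spread between these libraries, which may be technical.

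Osteoblasts arise from mesenchymal progenitors under the transcription factors Runx2 and osterix, lay down a matrix rich in type I collagen, and mineralize it. Those that become buried in matrix turn into osteocytes, which make proteins such as Dmp1. ECs line the vessels, hold to each other through VE-cadherin, CD31, and claudin-5, respond to VEGF, angiopoietins, and Notch ligands, and are kept in their state by transcription factors of the ETS, Sox, and Gata families. GSK3 marks β-catenin for degradation, so its inhibition is commonly used to activate the Wnt pathway.

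The treated libraries held 32629208, 36407894, and 34064250 counts and the EC libraries 43013521, 32523234, and 42878370. The control libraries held 68946333, 59125904, and 30990107. Where counts over the libraries of a group are given below, they are not scaled for these totals. Levels are CPM (the counts of a gene relative to its library total), scaled by TMM factors over all 9 libraries, and a fold change is the log2 of treated over ECs unless stated otherwise. A level of 3 counts equaled 0.0679 to 0.0899 CPM in the 6 treated and EC libraries and was taken as the detection floor, which reflects counting error alone. Replicates were compared by a chi-square statistic over their counts, divided by the number of genes, with a value near 1 where sampling of reads is the sole source of spread. It was between 2.85 and 4.57 for the EC pairs and 3.24 for treated replicates 1 and 2. The value was 21 and 27.4 for the pairs with treated replicate 3, where mitochondrial genes took 2.26% of the counts against 0.831% and 0.939% in the other treated libraries. Results without this library are given beside the counts below. The labeled cell types were checked against defining markers. All EC libraries were rich in Cdh5, Pecam1, and Kdr, while the defining markers of leukocytes and lung epithelium lay near 0, with Ptprc at no more than 0.18 CPM and Epcam, Sftpc, and Cd3e at 0 counts. Of 14 leukocyte markers, 3 passed the filter on low counts, and Cd68 was at 46 ± 1.02 CPM in ECs against 1.64 ± 0.0988 CPM in treated cells. The summed leukocyte list lay between 56.96 and 59.27 CPM in ECs and between 8.979 and 10.8 CPM in treated cells. Msln, which mesothelium expresses, was at 119 ± 3.55 CPM in ECs, but Wt1 and Upk3b, from the same list, had 1 and 21 counts over the 3 EC libraries. The part of other cells in the differences was not tested.

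Of the 14956 genes tested, 1515 (10.1%) were higher in treated osteoblasts and 2224 (14.9%) were higher in ECs, where a call required a log2 fold change of 2 or more in size and an FDR under 0.01 in edgeR's quasi-likelihood test. Without treated replicate 3 these counts were 1570 and 2486. The libraries of the groups did not overlap for 12879 (86.1%) of the genes tested, so the absence of overlap alone says little here, and the fold threshold does most of the selecting. The median log2 fold change over all genes tested was 0.00321. RNA-Seq of bulk cells cannot tell fewer cells expressing a gene from less RNA of that gene in each cell.

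**Figure D1:**
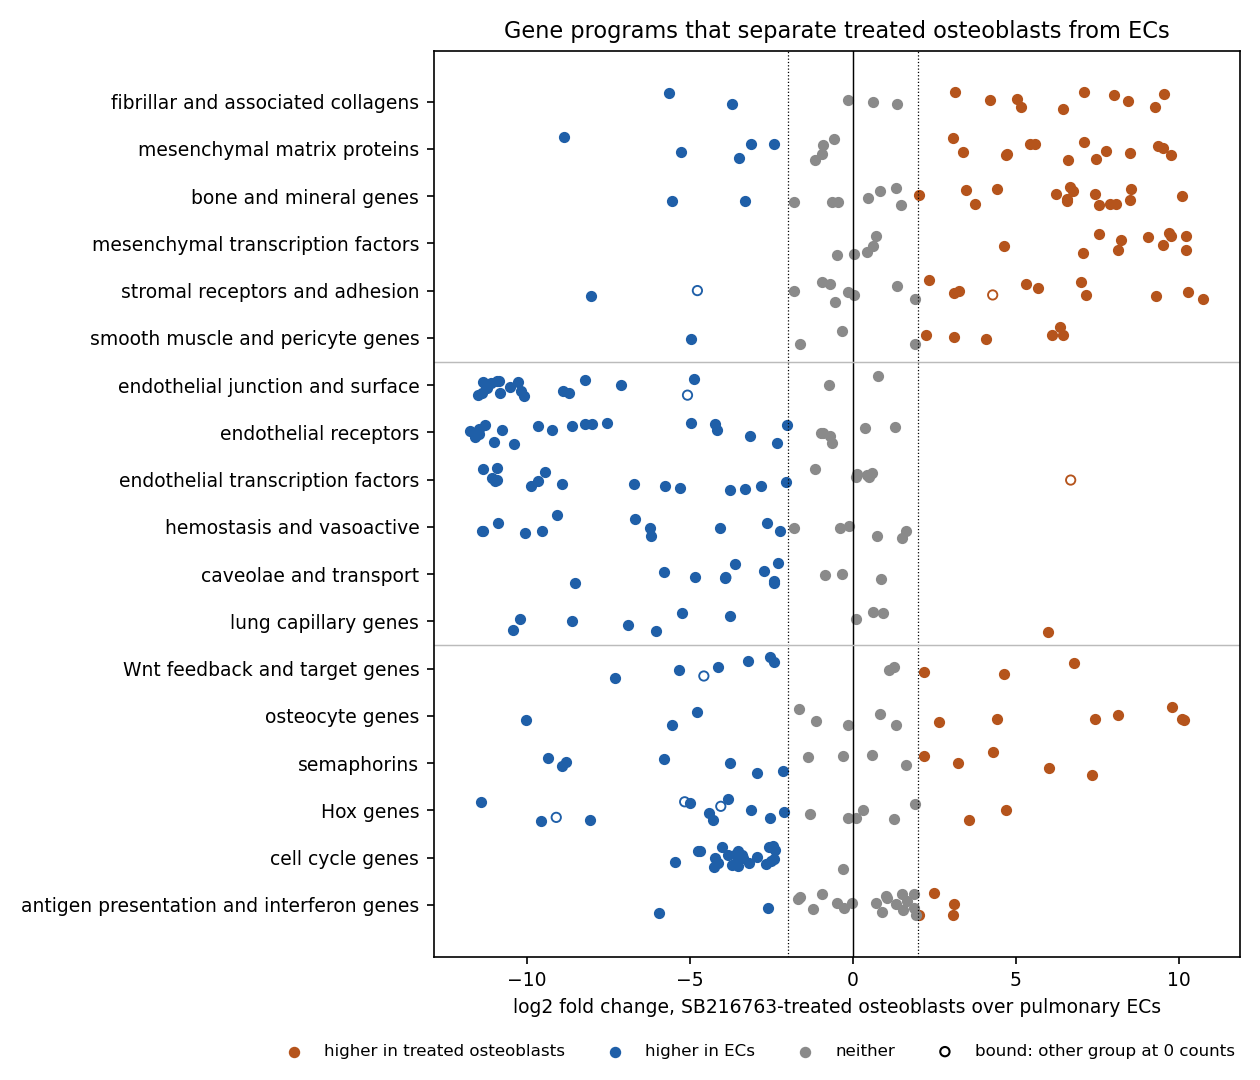
Each point is 1 tested gene of a hand-written list, placed at its log2 fold change of SB216763-treated osteoblasts over pulmonary ECs, with the fold threshold of 2 dotted. Open points are bounds for genes with 0 counts in every library of 1 group. The 6 endothelial lists lie mostly to the left and the 6 mesenchymal lists mostly to the right, with exceptions in both.

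Most genes of endothelial identity were far lower in the treated cells than in ECs. Of the 126 genes in 6 lists of endothelial function, 111 passed the filter on low counts, 84 of those were higher in ECs, 2 were higher in treated osteoblasts, and 25 were neither. Here and below, a gene called neither missed at least 1 of the thresholds, most often the fold threshold alone. The median log2 fold change of the genes tested was -6.22, or -6.05 with genes at 0 counts in a group set to their bound, against 0.00321 for all genes. Many of these genes passed the filter through their level in ECs alone, so the count describes the list and cannot be read as support. In 56 of the 84 genes the treated cells had a mean under 1 CPM. Without treated replicate 3, 85 genes were higher in ECs.

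The proteins that hold ECs to each other showed the widest separation of the 6 endothelial lists, with a median log2 fold change of -10.4. Of the 23 genes for endothelial junctions and surface molecules, 20 were higher in ECs and 0 in treated osteoblasts, and the remaining 2 that were tested, Jam2 and Jam3, were neither. Cdh5, which encodes VE-cadherin (chromosome 8, 104101625 to 104144511 on GRCm38, by GENCODE M21), was at 1759, 1740.2, and 1817 CPM in the EC libraries and at 0.613, 0.691, and 0.514 CPM in the treated libraries. Every EC library lay far above every treated library, with a log2 fold change of -11.51 (FDR 1.23e-21 by edgeR) and an approximate standard error (SE) of 0.08. Here and below, the SE is the size of the log2 fold change divided by the square root of the F statistic. It can understate the error where 1 group holds few counts, as with the 66 counts of Cdh5 over the treated libraries. Pecam1, the gene of CD31 (chromosome 11, 106654217 to 106750628), was at 1719.8, 1739.7, and 1742 CPM in ECs and 0.992, 0.585, and 0.811 CPM in treated cells, a log2 fold change of -11.10 (SE 0.09). For both genes the treated level lay at the level of the control osteoblasts, 0.587 ± 0.149 CPM for Cdh5 and 0.758 ± 0.177 CPM for Pecam1 (SD, n = 3). Cldn5, a tight junction protein of vessels, had 4 counts over the 3 treated libraries and reached 104 ± 4.02 CPM in ECs. Esam, F11r, and Icam2, which encode further adhesion molecules of ECs, had log2 fold changes of -10.28, -11.25, and -10.51. The selectins Sele and Selp, which catch leukocytes, were at 0.0452 ± 0.055 and 0.474 ± 0.173 CPM in treated cells against 56.9 ± 1.21 and 509.6 ± 10.2 CPM in ECs. Some members were measurable in the treated cells, among them Cd93 at 3.22 ± 0.233 against 959 ± 6.36 CPM in ECs. Cd34, a sialomucin of ECs and progenitors, was at 30.7 ± 3.04 CPM in treated cells, against 907 ± 9.81 CPM in ECs and 54.2 ± 3.32 CPM in control osteoblasts.

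The receptors for VEGF, angiopoietins, and BMPs followed the same pattern. Of 27 endothelial receptor genes, 20 were higher in ECs and 0 in treated osteoblasts. Kdr encodes Flk1, the VEGF receptor whose promoter drove the reporter in the study's drug screen. The gene itself (chromosome 5, 75932827 to 75978458) was at 0.467, 0.346, and 0.46 CPM in the treated libraries, 0.466, 0.555, and 0.504 CPM in the control libraries, and 1192, 1215, and 1238 CPM in the EC libraries. The treated and control libraries lay together and the ECs more than 3 decades above them, with a log2 fold change of -11.48 (SE 0.08) between treated cells and ECs. The study reported that nearly all treated reporter cells expressed EGFP by flow cytometry, which is a readout of the reporter and not of Kdr RNA. It also reported CD31 and VE-cadherin protein in most EGFP-positive cells. By real-time PCR it reported induction of CD34, VE-cadherin, CD31, and eNOS, and by RNA-Seq enhanced endothelial markers. In the treated libraries used here, RNA of Cdh5 and Pecam1 lay at the control level and that of Cd34 below it. The source of this difference was not tested. The sequence upstream of Kdr in the genome is given here, since the study used this promoter. It is the 250 bases before the RefSeq start, on the minus strand of GRCm38.p6, chr5:75978456-75978705. The fragment in the reporter is not described in the sources used here and may differ. Capitals mark the letters GGGCGG, the GC box, on either strand, which 32.7% of all 32851 RefSeq promoter windows of this length hold.
Kdr: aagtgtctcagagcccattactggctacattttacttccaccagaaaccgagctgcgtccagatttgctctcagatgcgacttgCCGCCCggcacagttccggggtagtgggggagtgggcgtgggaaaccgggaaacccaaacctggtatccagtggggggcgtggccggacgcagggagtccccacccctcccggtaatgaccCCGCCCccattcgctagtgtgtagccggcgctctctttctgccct
The window holds 2 such matches. A match describes the letters only. Tie1 and Tek, the receptors of the angiopoietin system, were at 0.21 ± 0.0718 and 0.128 ± 0.0377 CPM in treated cells and 670.1 ± 24.3 and 79.2 ± 0.687 CPM in ECs. Acvrl1 and Eng, the BMP receptor and co-receptor of endothelium, had log2 fold changes of -11.29 and -7.56. Flt1, a decoy receptor for VEGF, was at 6.49 ± 0.335 CPM after treatment, 64.8 ± 8.13 CPM in control osteoblasts, and 202 ± 5.94 CPM in ECs. The treated cells were thus further from ECs than the controls were for Flt1, and its difference between treated and control osteoblasts was -3.35 on the log2 scale.

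**Figure D2:**
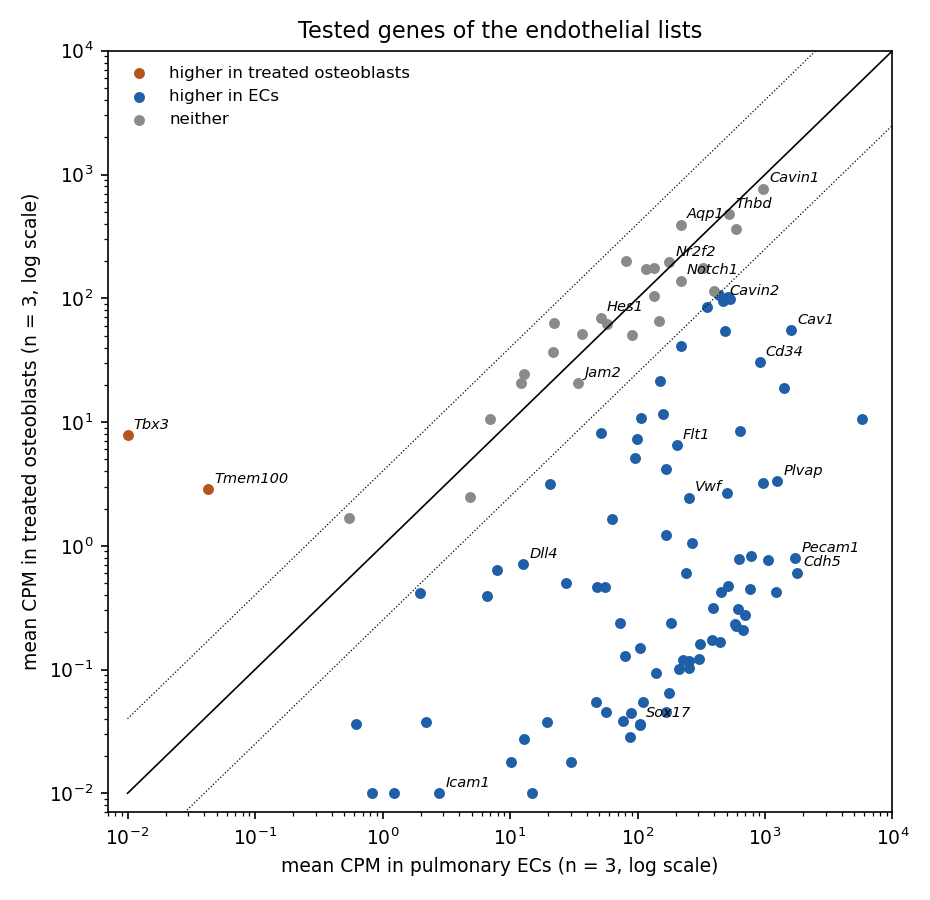
Each point is 1 of the 111 tested genes of the endothelial lists, by its mean CPM in ECs (horizontal, log scale) and in treated osteoblasts (vertical, log scale), n = 3 each, with means under 0.01 drawn at 0.01. The solid line marks equal levels and the dotted lines a 4-fold difference. The 84 blue points below the lines include Cdh5 and Pecam1, and the gray points near the diagonal include Nr2f2, Thbd, and Cavin1.

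Among the transcription factors that set endothelial fate, 16 of 28 were higher in ECs and 1, Tbx3, was higher in treated osteoblasts. Erg, the ETS factor that maintains ECs, was at 0.0875, 0.0532, and 0.162 CPM in the treated libraries and 207, 216, and 208 CPM in ECs. Sox17, Sox18, and Sox7, the Sox factors of early vessels, had 4, 19, and 4 counts over the 3 treated libraries and were at 104 ± 2.88, 384 ± 15.1, and 77.4 ± 1.13 CPM in ECs. Bcl6b and Epas1 had log2 fold changes of -10.92 and -9.88. Fli1 and Elk3, also ETS factors, and Gata2 differed less, with -3.31, -2.05, and -3.78, and the treated cells held 10.8 ± 0.294, 84.9 ± 5.94, and 7.28 ± 0.695 CPM of them. Klf2, which shear stress induces in ECs, was at 4.19 ± 0.772 CPM after treatment, 46.8 ± 4.53 CPM in control osteoblasts, and 167 ± 5.46 CPM in ECs. Tbx3 was at 7.8 ± 0.384 CPM in treated cells, had 0 counts in all 3 EC libraries, and was thus at least 103-fold higher in treated cells, taking 3 counts per library as the floor. It was at 6.13 ± 0.695 CPM in the controls, so its level there was like that of the treated cells.

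Of 20 genes for hemostasis and vessel tone, 12 were higher in ECs and 0 in treated cells. Nos3, the endothelial nitric oxide synthase, was at 0.422 ± 0.104 CPM in the treated cells against 449.7 ± 20.3 CPM in ECs, and Edn1, which encodes endothelin-1, at 0.166 ± 0.0822 and 445 ± 11.4 CPM. Vwf, which encodes von Willebrand factor, had 2.44 ± 0.0479 and 253 ± 18.7 CPM. Of 14 caveolar and transport genes, 10 were higher in ECs, among them Cav1 (-4.85) and Plvap (-8.53), which forms the diaphragms of fenestrae and caveolae. Of 17 lung capillary genes, 11 passed the filter, of which 7 were higher in ECs, including Ednrb and Clec1a, with 2 and 1 counts in the treated libraries. The 6 that were not tested were near 0 in the ECs as well, with 0 counts of Car4, Hpgd, Cyp4b1, and Scn7a, 1 of Fibin, and 9 of Bmp6, so a part of the genes used to mark lung capillaries was absent from the cells labeled pulmonary ECs. Tmem100 went the other way, with 2.85 ± 0.445 CPM in treated cells and 0.0428 ± 0.0188 CPM in ECs (log2 fold change 5.99), and was at 25.4 ± 1.93 CPM in the controls.

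A part of the endothelial lists differed by less than 4-fold between the groups. Of the 25 genes called in neither direction, 24 passed the FDR threshold and missed the fold threshold. They included Nr2f2, the venous fate factor, at 201, 195, and 189.6 CPM in the treated libraries and 180.4, 179.9, and 172 CPM in the EC libraries. The treated libraries lay just above the ECs, by 0.14 on the log2 scale (SE 0.04). The Notch target Hes1 was at 69.6 ± 4.09 and 51.4 ± 0.567 CPM and the receptor Notch1 at 139 ± 10.3 and 218 ± 11.9 CPM in treated cells and ECs. The junction gene Jam2 was at 20.7 ± 1.69 and 34.3 ± 1.07 CPM in the same order. In control osteoblasts these 4 genes were at 35.4, 6.67, 18.3, and 1.55 CPM, and they are named because they were the 4 of the 25 that were higher in treated than in control cells at the same thresholds, where 3.72% of the 13902 genes tested were higher and 6.11% lower. The comparison with controls shares the treated libraries with the comparison with ECs. Others were near the EC level in the control osteoblasts already. Thbd, which encodes thrombomodulin, was at 478 ± 29.8 CPM in treated cells, 521 ± 8.41 CPM in ECs, and 684 ± 34.6 CPM in controls, and Cavin1, a caveolar coat protein, at 769 ± 43.4, 962 ± 13.6, and 1216 ± 76.1 CPM. Foxf1, a lung mesenchyme and capillary factor, was the 1 gene of the 25 that missed the FDR threshold, and its libraries of treated cells and ECs overlapped (63.2, 65.3, and 57.4 CPM against 58.1, 58.3, and 56.4 CPM).

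Of the 84 endothelial genes higher in ECs, 2 were higher in treated than in control osteoblasts at the thresholds and 14 were lower. Among all 2224 genes higher in ECs, 55 (2.47%) were higher than in the controls and 423 (19%) were lower, so these counts are near the background. Dll4, the Notch ligand of arterial and tip cells, was at 0.707 ± 0.0467 CPM after treatment, 0.0691 ± 0.0603 CPM in controls, and 12.7 ± 0.217 CPM in ECs. Cavin2 was at 95 ± 7.0, 18 ± 1.1, and 471 ± 5.84 CPM in the same order. The 14 that were lower than in the controls were Adgrf5, Edn1, Fabp5, Flt1, Hey1, Hhex, Klf2, Nrp2, Ptgis, Ptprb, Sema3c, Stab1, Tal1, and Tspan18. The other genes had a log2 fold change within 1 of the controls (25 genes), fell between the limits, or were too low in both osteoblast groups to be tested there (32 genes).

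In all genes, 1042 of those higher in ECs had at least 10 CPM there. Of these, 397 were under 1 CPM in the treated osteoblasts, and 338 of the 397 were under 1 CPM in the control osteoblasts too. Each of the 12 with the largest fold change had at least 20 CPM in ECs and at most 1 count over all 3 treated libraries. Rapgef5, an exchange factor for Ras-like GTPases, was at 73.4 ± 1.98 CPM in ECs with 0 counts in the treated cells, at least 886-fold higher in ECs. Tgfa, an EGF receptor ligand, was at 52.9 ± 0.765 CPM and at least 639-fold higher, and Hoxd9 at 45.6 ± 0.685 CPM and at least 550-fold higher. The cell cycle inhibitors Cdkn2b and Cdkn2a were at 40.3 ± 0.624 and 27 ± 0.552 CPM in ECs, at least 486-fold and 326-fold higher. Dhh, a hedgehog ligand of arterial endothelium and Schwann cells, was at 81.8 ± 2.16 CPM in ECs with 1 count in the treated libraries. Kif26a was at 89.2 ± 2.2 CPM, also with 1 count. The remaining genes of the 12, Sprr2b, Ptchd1, Mageh1, Fam181b, and Ifi202b, lay between 21.5 and 39.4 CPM in ECs with 0 counts in treated cells.

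Much of the mesenchymal profile was still above the EC level in the treated cells, with a part of it lower than in the controls. Of the 133 genes in 6 mesenchymal lists, 110 were tested, 68 of those were higher in treated osteoblasts, 12 were higher in ECs, and 30 were neither. Among all genes tested, 10.1% were higher in treated osteoblasts and 14.9% in ECs. Of the 110, 6 had under 3 counts in every EC library. Such genes passed the filter through the treated cells alone, so the counts here and in the single lists cannot be read as support. The median log2 fold change of the genes tested was 4.31, or 4.25 with genes at 0 counts set to their bound. Of the 68, 29 lay within 1 of the control osteoblasts on the log2 scale, 19 were lower than in the controls, and 6 were higher, namely Dmp1, Enpp1, Fap, Foxc1, Mrc2, and Spp1. Among all 1515 genes higher in treated osteoblasts than in ECs, 49.8% lay within 1 of the controls, 6.8% were lower, and 16% were higher. Genes lower than in the controls were more frequent in the lists than in that background. The lists were written with earlier results of these data known, so this difference is a description and no test. Without treated replicate 3, 69 genes were higher.

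Among the 6 mesenchymal lists the transcription factors had the largest median difference, with 11 of 23 higher in treated osteoblasts, 0 in ECs, and a median log2 fold change of 7.84 over the 16 tested. Prrx2, a homeobox factor of limb and craniofacial mesenchyme, was at 373, 402, and 365 CPM in the treated libraries and 0.317, 0.389, and 0.252 CPM in the EC libraries. The groups lay 3 decades apart, with a log2 fold change of 10.22 (SE 0.08). Its paralog Prrx1 was at 471 ± 32.3 and 3.59 ± 0.606 CPM. Twist1, which holds cells in a mesenchymal state, was at 63.4 ± 4.38 CPM in treated cells against 0.0832 ± 0.0133 CPM in ECs, and Sox9, the factor of cartilage and skeletal progenitors, at 102 ± 1.95 against 0.0902 ± 0.0807 CPM. The limb and trunk factors Tbx15, Tbx18, Osr1, Six2, and Alx1 had log2 fold changes between 7.55 and 9.75. In 7 of the 11 genes the treated level lay within 1 log2 unit of the control osteoblasts, and 1 of the 11, Foxc1, was higher after treatment (164 ± 7.24 against 19.3 ± 1.63 CPM). The factors best known from epithelial-mesenchymal transition gave smaller differences, since Snai1, Snai2, Zeb1, and Zeb2 missed the fold threshold and differed by 0.43, 0.70, 0.03, and 0.60 on the log2 scale. Of these, Zeb1 alone also missed the FDR threshold.

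**Figure D3:**
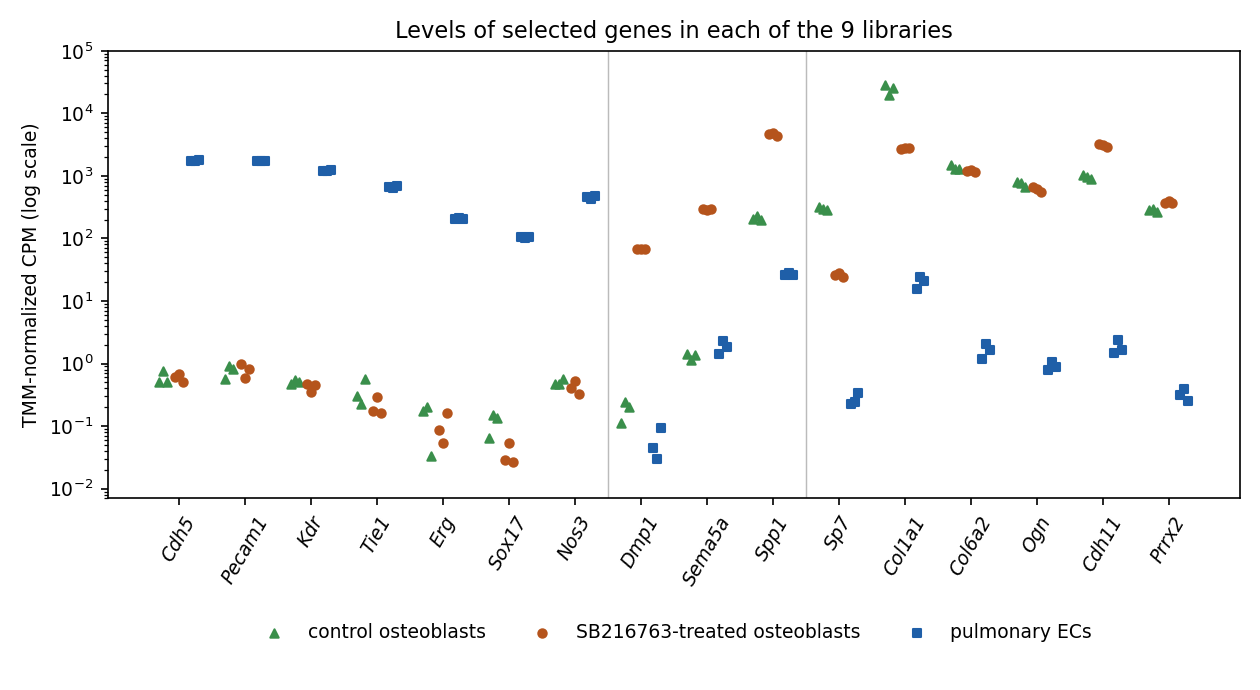
Each point is 1 library, with its TMM-normalized CPM on a log scale for 16 genes. For the 7 endothelial genes on the left the treated osteoblasts lie near the control osteoblasts and far below ECs, for Dmp1, Sema5a, and Spp1 in the middle they lie above both other groups, and for the mesenchymal genes on the right they lie above ECs, with Sp7 and Col1a1 below the control osteoblasts.

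The matrix genes showed both what was kept and what was reduced. Of 16 collagen genes, 10 were higher in treated cells than in ECs. Col1a1 was at 2715, 2760.3, and 2802 CPM in the treated libraries and 15.7, 24.4, and 20.9 CPM in the EC libraries, a log2 fold change of 7.09 (SE 0.12), although its log2 difference from the controls was -3.19. Of type VI collagen, which forms beaded filaments around mesenchymal cells, Col6a1 and Col6a2 lay within 1 log2 unit of the controls and Col6a3 did not, with a difference of -1.21. Col6a1 was at 1531 ± 10.1 CPM in treated cells, 1693 ± 161 CPM in controls, and 4.41 ± 0.879 CPM in ECs, and Col6a2 at 1197 ± 37.9, 1356 ± 112, and 1.62 ± 0.445 CPM. Col16a1 was likewise at 331 ± 6.97 and 333 ± 22 CPM in treated and control cells, against 0.525 ± 0.213 CPM in ECs. Of 26 other matrix genes, 14 were higher in treated cells and 5 in ECs. Their summed level was nonetheless higher in ECs, at 19430 to 21040 CPM against 13230 to 13510 CPM in treated cells. Most of the EC sum came from Fn1, Thbs1, and Sparc, with 1176182, 647347, and 449317 raw counts over the EC libraries. The small leucine-rich proteoglycans Dcn, Lum, and Ogn, which space collagen fibrils, had log2 fold changes over ECs of 9.51, 9.76, and 9.38, and differed from the controls by -0.34, 0.70, and -0.32. Fmod, of the same family, was at 123 ± 4.64 CPM in treated cells, 4218 ± 235 CPM in controls, and 4.68 ± 0.637 CPM in ECs, so it lay between them.

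Of 23 stromal receptors and adhesion molecules, 11 were higher in treated cells. Cdh11, the cadherin of osteoblasts and fibroblasts (chromosome 8, 102632095 to 102785642), was at 3283, 3170.2, and 2888 CPM in the treated libraries, 1049, 973, and 900.1 CPM in the control libraries, and 1.47, 2.37, and 1.67 CPM in the EC libraries. The treated libraries held the most in every case, with a log2 fold change over ECs of 10.75 (SE 0.10). Cdh11 overlaps 4 other genes in the annotation, as Runx2, Prrx1, Notch1, Antxr1, and Spp1 overlap at least 1, with the same uncertainty for reads in the overlap when strand is not known. Pdgfrb, the PDGF receptor of mesenchymal and mural cells, was at 754 ± 4.66 CPM in treated cells and 5.91 ± 0.00961 CPM in ECs, and Mrc2, a receptor that takes up collagen, at 2518 ± 37.6 and 2.05 ± 0.407 CPM. The collagen receptors Itga11 and Ddr2 had log2 fold changes of 9.30 and 5.68. Fap had 161 counts over the treated libraries and 0 over the EC libraries, at least 19.6-fold higher. Of 15 smooth muscle and pericyte genes, 6 were higher in treated cells, including Acta2 at 145 ± 11.2 against 16.8 ± 0.54 CPM, with 2920.0 ± 169 CPM in the controls.

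Most genes of bone formation were above the EC level. Of 30 bone and mineral genes, 25 were tested, 16 were higher in treated cells, and 2, Msx1 and Sost, were higher in ECs. Of the 16, 5 were lower than in the control osteoblasts (Ibsp, Omd, Pth1r, Sp7, and Tnfrsf11b) and 3 were higher (Dmp1, Enpp1, and Spp1). Among all 1515 genes higher in treated osteoblasts than in ECs, 6.8% were lower than in the controls and 16% were higher. Sp7, which encodes osterix, was at 26.4, 27.9, and 24.4 CPM in the treated libraries and 0.226, 0.24, and 0.344 CPM in the EC libraries, a log2 fold change of 6.57 (SE 0.12). Runx2 was at 118 ± 2.41 and 10.6 ± 0.778 CPM, Dlx5, a homeobox factor of bone, at 28 ± 0.648 and 0.078 ± 0.0381 CPM, and the bone sialoprotein gene Ibsp at 11.5 ± 1.61 and 0.0604 ± 0.0344 CPM. Mgp, whose protein inhibits calcification, was at 199 ± 11.4 and 0.568 ± 0.342 CPM. Several genes of mineral deposition were among the 7 called in neither direction, all of which passed the FDR threshold and missed the fold threshold. Alpl, the alkaline phosphatase, was at 0.474 ± 0.189 CPM in treated cells, 1.69 ± 0.0186 CPM in ECs, and 34.1 ± 3.63 CPM in controls, Phospho1 at 1.01 ± 0.0495, 0.552 ± 0.0896, and 5.45 ± 0.404 CPM, and Smpd3 at 5.3 ± 0.788, 3.84 ± 0.239, and 328 ± 20.7 CPM. For these 3 genes the treated cells were nearer to ECs than to their own controls. They were the 3 of the 7 that were lower than in the controls, and 1 of the 7 was higher. That gene, Ank, had 40020 raw counts over the treated libraries, 16136 over the EC libraries, and 10893 over the control libraries.

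Several matrix genes of the mesenchymal lists were higher in ECs instead. Thbs1, an antiangiogenic matrix protein, was at 5342 ± 119.6 CPM in ECs against 470.4 ± 7.03 CPM in treated cells, Col8a1, a collagen of vessel walls, at 604 ± 8.24 and 12 ± 1.18 CPM, and the elastin gene Eln at 22.9 ± 0.733 and 0.0446 ± 0.0407 CPM. Ly6a, which encodes Sca-1, was at 535 ± 8.35 and 2.03 ± 0.11 CPM. Fn1 and Sparc passed the FDR threshold but missed the fold threshold, with log2 fold changes of -1.15 and -0.91. Thbs1, Col8a1, and Ly6a were also lower in treated than in control osteoblasts.

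Over all genes, 755 (49.8%) of the 1515 genes higher in treated osteoblasts than in ECs lay within 1 log2 unit of the control osteoblasts, 103 (6.8%) were lower than in the controls at the thresholds, 243 (16%) were higher, and 414 (27.3%) lay between these limits. The 12 genes within 1 unit of the controls with the highest CPM in treated cells, an order that favors long genes, were Bgn, Mmp2, Col6a1, Fgfr1, Col6a2, Itgb5, Sh3pxd2a, Pcolce, Antxr1, Gsn, Ogn, and Nfix. Most of these encode matrix proteins, enzymes that process matrix, or receptors for it. Mmp2, a gelatinase, was at 2549, 2582, and 2372 CPM in the treated libraries and 8.01, 9.49, and 8.42 CPM in the EC libraries, with 1478 CPM as the mean in the controls. Pcolce, an enhancer of procollagen processing, was at 869.6 ± 57.8, 18.1 ± 0.728, and 941 ± 46.7 CPM in treated cells, ECs, and controls. Bgn, Fgfr1, Itgb5, Sh3pxd2a, Antxr1, Gsn, and Nfix were also expressed in ECs, and their log2 fold changes lay between 2.34 and 3.25.

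The 12 genes with the largest log2 fold change over ECs, at 10 CPM or more in the treated cells, included Emb, Kcnt2, Irx2, Larp6, Edil3, Tfap2b, Ptges, Setbp1, Cdh11, Igfbp5, and Eya1. Edil3, an integrin ligand, was at 408 ± 34.2 CPM in treated cells, 0.209 ± 0.105 CPM in ECs, and 44.4 ± 7.11 CPM in controls, and Ptges, a prostaglandin E synthase, at 432 ± 29.1, 0.237 ± 0.0925, and 54.5 ± 2.34 CPM in the same order. Igfbp5, an IGF-binding protein of bone, was at 403 ± 12.8, 0.26 ± 0.0444, and 77.2 ± 3.46 CPM. The developmental factors Irx2, Tfap2b, and Eya1 were at 29.8 ± 1.09, 174 ± 3.28, and 238 ± 8.98 CPM in treated cells and had 1, 11, and 19 counts over the EC libraries. Kcnt2, a potassium channel, had 0 counts in ECs and was at least 141-fold higher. Emb and Larp6 had 1 and 2 counts there.

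**Figure D4:**
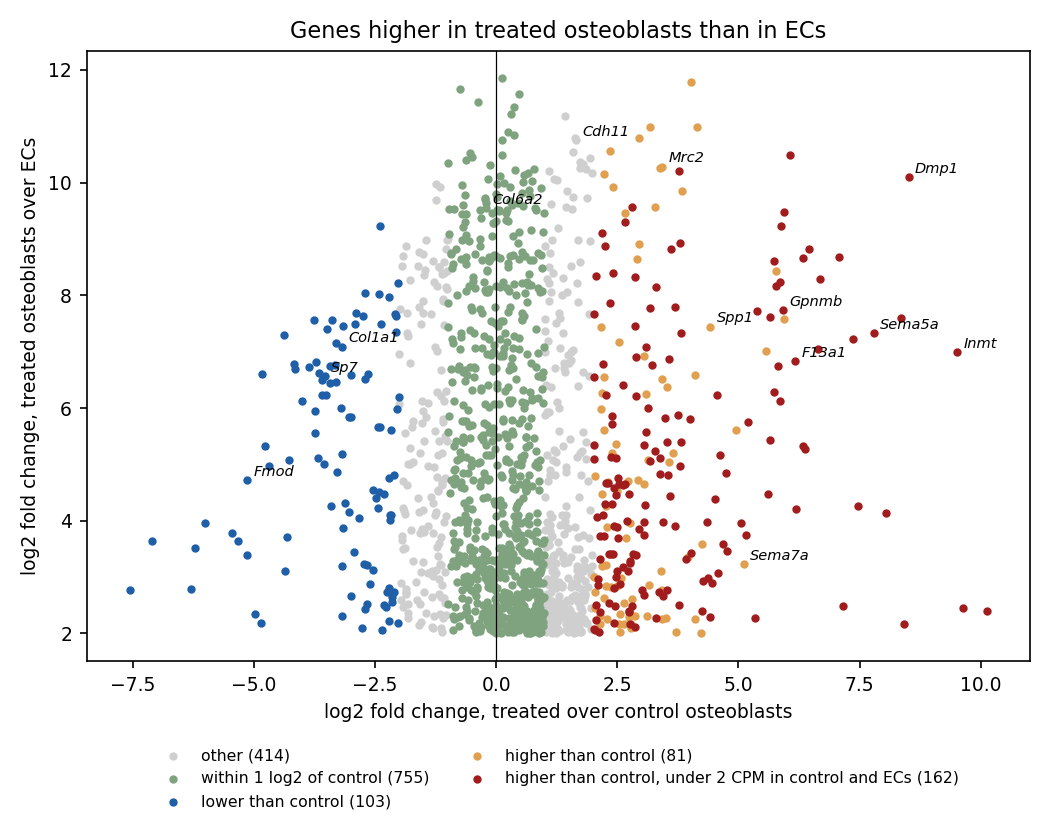
Each point is 1 of the 1515 genes higher in treated osteoblasts than in ECs, by its log2 fold change over control osteoblasts (horizontal) and over ECs (vertical), both of which use the same 3 treated libraries. Green points (755) lie within 1 of the controls, blue points (103) are lower than in the controls, and the red points (162), with Dmp1 and Sema5a among them, are higher than in the controls and under 2 CPM in both other groups.

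Another class consisted of genes that were low in both ECs and control osteoblasts. It held 162 genes, 115 of them protein coding, that were higher in treated cells than in both other groups at the thresholds and had a mean under 2 CPM in each of those groups. These values chose the genes, so their levels are a description and no test. A further 81 genes were higher than in both groups without being low in both. Most of the 162 were low after treatment as well, and 20 reached 10 CPM. For another 12 of the 162, all under 2 CPM in treated cells, the control and EC libraries held at most 3 counts in total per group. Just inside the limit of 2 CPM lay Tmeff2, at 1.99 CPM in controls and 10.2 CPM in treated cells, and just outside it Emb, at 2.5 and 40.6 CPM. With a limit of 1 or of 5 CPM the class held 140 or 173 genes. Without treated replicate 3 it held 166.

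The 12 genes of this class with at least 10 CPM and the largest smaller fold change were Dmp1, Scml4, Sema5a, Inmt, Abca8a, F13a1, Arhgap22, Gpnmb, Abi3bp, Abca8b, Rragd, and Plag1. Dmp1, an acidic phosphoprotein of osteocytes and dentin that binds mineral (chromosome 5, 104202613 to 104214102), was at 67.8, 66.7, and 66.7 CPM in the treated libraries, 0.0453, 0.030, and 0.0918 CPM in the EC libraries, and 0.112, 0.241, and 0.202 CPM in the control libraries. Every treated library lay above every other, with log2 fold changes of 10.10 over ECs and 8.51 over controls. Sema5a, a transmembrane semaphorin with thrombospondin repeats that guides axons and acts on ECs (chromosome 15, 32244810 to 32696341), was at 299, 289.8, and 294 CPM in the treated libraries, 1.4, 2.31, and 1.86 CPM in ECs, and 1.4, 1.15, and 1.38 CPM in controls. ECs and control osteoblasts thus held similar small amounts of Sema5a, and its log2 fold changes were 7.33 and 7.80. A further gene overlaps Sema5a in the annotation, and the strand setting of the counting is not given in the sources used here, so reads from the overlap cannot be assigned with certainty. F13a1, the transglutaminase that crosslinks fibrin and bone matrix, was at 34.4 ± 0.73 CPM in treated cells, 0.297 ± 0.00274 CPM in ECs, and 0.475 ± 0.187 CPM in controls. Gpnmb, or osteoactivin, a glycoprotein of osteoblasts and macrophages, was at 60.8 ± 3.45, 0.275 ± 0.115, and 1.02 ± 0.162 CPM. Inmt, an N-methyltransferase, was at 17.3 ± 0.602 CPM with 16 and 3 counts over the EC and control libraries. Abca8a and Abca8b, neighboring lipid transporter genes of similar sequence whose counts may be shared, were at 14.7 ± 0.543 and 48.4 ± 2.2 CPM. Abi3bp, a matrix protein, was at 26.8 ± 0.827 CPM, Rragd, a GTPase of mTORC1 signaling at the lysosome, at 20.1 ± 0.674 CPM, and the zinc finger factor Plag1 at 22.8 ± 1.35 CPM, with no more than 1.09 CPM in ECs and controls for the 3 genes. Scml4 and Arhgap22 were at 21.5 ± 1.92 and 16.6 ± 2.1 CPM.

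Spp1, the osteopontin gene, belongs beside Dmp1, since both encode acidic phosphoproteins of bone matrix from 1 gene cluster on chromosome 5 (104435118 to 104441050 for Spp1). It was at 4720.0, 4773, and 4322 CPM in the treated libraries, 25.6, 27.5, and 26 CPM in ECs, and 207, 227, and 197 CPM in controls. All 3 treated libraries lay above all others, with log2 fold changes of 7.45 over ECs (SE 0.06) and 4.42 over controls, but ECs and controls expressed it, so it fell outside the class. The promoters of Dmp1, Spp1, and Sema5a are given because these genes lay above both other groups together. Each is the 250 bases before the RefSeq start nearest to the GENCODE gene start, on the plus strand of GRCm38.p6, chr5:104202367-104202616 for Dmp1, chr5:104434861-104435110 for Spp1, and chr15:32244563-32244812 for Sema5a. In Dmp1 and Spp1, capitals mark TGTGGT, the core of Runx binding sites, on either strand, which 14% of all RefSeq promoter windows of this length hold. In Sema5a, capitals mark GGGCGG on either strand.
Dmp1: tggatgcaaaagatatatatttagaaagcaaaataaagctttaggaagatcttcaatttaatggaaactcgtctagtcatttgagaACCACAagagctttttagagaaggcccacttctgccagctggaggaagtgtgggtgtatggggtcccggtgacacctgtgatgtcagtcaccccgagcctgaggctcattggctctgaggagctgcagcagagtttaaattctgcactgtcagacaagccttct
Spp1: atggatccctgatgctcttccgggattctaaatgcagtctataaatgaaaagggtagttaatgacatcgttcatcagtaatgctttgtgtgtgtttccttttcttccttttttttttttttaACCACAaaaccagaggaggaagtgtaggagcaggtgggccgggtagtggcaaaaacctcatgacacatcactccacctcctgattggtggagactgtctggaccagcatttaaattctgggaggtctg
Sema5a: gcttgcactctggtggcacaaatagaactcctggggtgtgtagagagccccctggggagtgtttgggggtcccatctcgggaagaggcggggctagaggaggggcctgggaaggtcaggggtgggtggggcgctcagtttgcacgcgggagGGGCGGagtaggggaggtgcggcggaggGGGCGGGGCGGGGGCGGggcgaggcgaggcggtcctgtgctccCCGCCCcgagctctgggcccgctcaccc
Dmp1 and Spp1 hold 1 match each, on the minus strand, and Sema5a holds 5 matches, some of them overlapping, and no Runx core. The letters TATAAA, on either strand, are in the Spp1 window and in neither of the other two, and 12.4% of all windows hold them. Cdh5 and Pecam1 were not in the table of promoters used.

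Among 18 osteocyte genes, 15 were tested, 7 were higher in treated cells, 3 were higher in ECs, and 5 were neither. Over all genes tested, 10.1% were higher in treated cells and 14.9% in ECs. Of the 7, 3 were higher than in the controls (Dmp1, Fbln7, and Spp1) and 1, Tnfrsf11b, was lower. Among all 1515 genes higher in treated osteoblasts than in ECs, 16% were higher than in the controls and 6.8% were lower. Irx3 and Irx5 had 8001 and 7007 raw counts over the treated libraries and 21830 and 20457 over the control libraries, before scaling for library size. Besides Dmp1 and Spp1, Fbln7, a fibulin, was at 32 ± 2.4 CPM in treated cells and 6.62 ± 0.43 CPM in controls with 3 counts over the EC libraries, while Pdpn, or podoplanin, was at 98.7 ± 6.74 CPM in treated cells and 97.2 ± 8.41 CPM in controls against 0.113 ± 0.0588 CPM in ECs. Sost, which encodes the Wnt inhibitor sclerostin of mature osteocytes, had 3 counts over the treated libraries and was at 1.44 ± 0.141 CPM in ECs, and Mepe and Fgf23 did not pass the filter on low counts.

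The semaphorins divided the groups in both directions. Of 20, 16 were tested, 5 were higher in treated cells, 7 in ECs, and 4 in neither, where 10.1% and 14.9% of all genes tested were higher in treated cells and in ECs. Besides Sema5a, Sema7a, a membrane-anchored semaphorin, was at 171 ± 14.4 CPM in treated cells, 18 ± 0.625 CPM in ECs, and 4.83 ± 0.361 CPM in controls. Among the secreted class 3 genes, Sema3c, Sema3e, Sema3f, and Sema3g were higher in ECs and Sema3b was higher in treated cells, with Sema3f in ECs at 255 ± 6.57 against 0.568 ± 0.0625 CPM and Sema3c at 159 ± 5.53 against 11.6 ± 1.21 CPM, and Sema6b and Sema6d had log2 fold changes of -9.34 and -8.92. Sema3a, which bone cells secrete, was at 147 ± 4.31 and 47.1 ± 1.28 CPM, which passed the FDR threshold but missed the fold threshold.

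Of 20 Wnt feedback and target genes, 12 were tested, 3 were higher in treated cells, 7 were higher in ECs, and 2 were neither. Over all genes tested, 10.1% were higher in treated cells and 14.9% in ECs. Axin2, the feedback gene most used as a readout of Wnt signaling, was at 0.846, 0.931, and 0.974 CPM in the treated libraries, 27, 24.8, and 26.3 CPM in the control libraries, and 0.181, 0.18, and 0.229 CPM in ECs. It was higher than in ECs (log2 fold change 2.19) and lower than in controls (-4.85). Tcf7, a β-catenin partner, was at 1.8 ± 0.0976 CPM in treated cells, 76 ± 5.37 CPM in controls, and 10.4 ± 0.738 CPM in ECs, and Wif1, a Wnt inhibitor, at 3.1 ± 0.0586, 54.8 ± 4.04, and 0.0253 ± 0.0233 CPM. Ccnd1, which encodes cyclin D1, was at 230.3 ± 11 CPM against 2123 ± 17.9 CPM in ECs. In the comparison with controls, 13 genes of this list were tested, 0 were higher in treated cells, and 7 were lower. Of all genes tested in that comparison, 3.72% were higher and 6.11% were lower. Rnf43 and Nkd2, which inhibit Wnt signaling, were among the 7 but were too low to be tested against ECs, with 34 and 1 counts over the treated libraries and 3551 and 235 over the control libraries.

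Genes of proliferation, position, and antigen presentation were compared as well, beside the 10.1% and 14.9% of all genes tested that were higher in treated cells and in ECs. Of 24 cell cycle genes, 23 were higher in ECs and 0 in treated cells, with a median log2 fold change of -3.52. Mki67, the antigen Ki-67 of cycling cells, was at 18.8, 19.7, and 23.9 CPM in the treated libraries, 372, 388, and 404 CPM in ECs, and 236, 171, and 231 CPM in controls. ECs and control osteoblasts both lay above the treated cells. Against the controls, 22 of the 24 genes were lower in treated osteoblasts, where 6.11% of all genes tested were lower. Of 39 Hox genes, which mark the position of a cell along the body axis, 21 were tested, 13 were higher in ECs, and 2, Hoxa9 and Hoxa10, were higher in treated cells. Hoxd3, Hoxd4, Hoxd8, Hoxd9, and Hoxd10 were all among the 13, with Hoxd8 at 186 ± 9.96 CPM in ECs and 0.0628 ± 0.0681 CPM in treated cells. Hoxa9 was at 2.09 ± 0.402 against 0.176 ± 0.0532 CPM. Of 25 genes of antigen presentation and interferon responses, 18 were called in neither direction (17 of these passed the FDR threshold alone), 4 were higher in treated cells (B2m, Irf1, Nlrc5, and Psmb8), and 2, Bst2 and Ifi27l2a, were higher in ECs. The lists of lung epithelial and erythroid markers had 2 and 1 genes that passed the filter, with summed levels in ECs of at most 2.776 and 0.7488 CPM.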

How the data were processed

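RNA-Seq was performed on total RNA of 3 control osteoblast, 3 SB216763-treated osteoblast, and 3 pulmonary EC libraries. The authors deposited 1 table of raw counts per gene. Per the submitters' processing notes, reads were aligned with STAR 2.5.3a to GRCm38. The counting tool, the annotation release, and the strand setting are not given in the sources used here, so reads of overlapping genes may be misassigned. Gene positions were taken from GENCODE M21 by Ensembl identifier. The table held 50686 genes. Each title gave the group of its sample.

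The counts of the 6 treated and EC libraries were filtered with filterByExpr, scaled by TMM, and tested with the quasi-likelihood F test of edgeR 4.0.16 (R 4.3.3) and Benjamini-Hochberg adjustment, and a gene was called at an FDR under 0.01 and 2 or more log2 units. These cutoffs follow the study. The treated and control libraries were fitted the same way. Fold changes used a prior count of 0.125. The test was checked on simulated data. Where all libraries of a group had 0 counts, a lower bound on the fold was computed from 3 counts per library.

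Named genes were those of hand-written lists, the 12 with the largest fold change in each direction (10 CPM or more in the higher group, no overlap), the 12 acquired genes of 10 CPM or more with the largest smaller fold change, and the 12 highest genes within 1 log2 unit of controls. Predicted genes were counted but not described, and a few named genes are not reported here. The comparison, the lists, and the rules were chosen with earlier results of these data known. Replicate numbers did not pair the libraries (correlations of same-numbered deviations 0.00443, 0.00659, and -0.0561). Alternatives included DESeq2 1.42.0 and limma 3.58.1, other filters, scalings, and thresholds, and leaving out libraries. Leaving out each control library was chosen after seeing the data. Promoters came from RefSeq (GRCm38.p6).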

Additional observations from a re-analysis of the deposited data

How the results depend on the processing

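Over 24 settings, 223 of 228 recomputed values kept their direction and side of the threshold or stayed within 1.5 times the reported count, and 0 reversed. The other 5 were counts of genes. With a limit of 1 log2 unit, 2935 genes were higher in treated osteoblasts, 3436 were higher in ECs, and 387 were in the acquired class, in place of 1515, 2224, and 162. The acquired class held 254 genes without a filter on low counts and 74 with a test against a fold change of 2 log2 units (glmTreat). These counts follow from the looser or stricter construction of each setting. Leaving out 1 library at a time gave 1557 to 1615 genes higher in treated cells, 2292 to 2486 higher in ECs, 156 to 172 acquired, 68 to 69 mesenchymal list genes higher in treated cells, and 84 to 85 endothelial list genes higher in ECs. With the replicate block the same 5 counts were 1518, 2223, 159, 68, and 84, although the numbers did not pair the libraries. All 133 values for Cdh5, Pecam1, Sema5a, Dmp1, Spp1, Sp7, and Col1a1 kept direction and call, with Cdh5 between -11.61 and -11.4 and Dmp1 between 9.252 and 10.6. Depth limits genes near 3 counts per library, and with 3 libraries a group the spread of each gene was estimated with help from all genes.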

Other observations

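The genes next to Cdkn2a and Cdkn2b on chromosome 4 were examined after their values were seen. Mtap, the adjacent gene for a methionine salvage enzyme, had 4956, 3922, and 4850 counts in the EC libraries, 3, 2, and 1 counts in the treated libraries, and 2, 3, and 0 counts in the control libraries. Cdkn2a and Cdkn2b had 0 counts in every treated library and 1 count each over the control libraries. Klhl9, farther along the same chromosome, was counted in all groups, with 4525, 5057, and 4430 counts in the treated libraries and 3214, 2505, and 2947 in the EC libraries. The genes between Klhl9 and Mtap were mixed. Gm12602, the nearest to Mtap, had 371, 357, and 298 counts in the treated libraries and 44, 26, and 39 in the EC libraries. Mir31 had 55, 45, and 69 against 61, 55, and 51. Wincr1 had 6, 12, and 9 against 434, 366, and 412, and Ifne 1, 0, and 0 against 47, 26, and 48. The near-absence of Cdkn2a, Cdkn2b, and Mtap was thus shared by treated and control MC3T3-E1 cells.

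Further genes that were higher in the treated cells than in both other groups were chosen after their values were seen. Mme, the membrane peptidase neprilysin, was at 3079 ± 135 CPM in treated cells, 16.2 ± 0.479 CPM in ECs, and 48.9 ± 5.12 CPM in controls (SD, n = 3). Mmp13, a collagenase of bone and cartilage, was at 607 ± 27.6, 1.78 ± 0.465, and 10.7 ± 0.809 CPM in the same order. Cp, the gene of the copper-binding ferroxidase ceruloplasmin, was at 1605 ± 21.4, 12.4 ± 0.451, and 33.1 ± 3.87 CPM. Angpt1, the Tek ligand that mural cells secrete, was low even in treated cells, at 1.34 ± 0.272 CPM. It had 47, 60, and 39 counts in the treated libraries, 1 count over the control libraries, and 0 in the EC libraries, which put it at least 17.7-fold higher in treated cells than in ECs.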
